A study of Mus musculus with 16 samples.

Results

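The genes of the mouse mitochondrial genome were read as a group in RNA from 15 mammary tumors. All genes that the deposited annotation places on chromosome M were taken, and they numbered 15 of 27179 genes: 13 that encode proteins of the respiratory chain and 2 that encode the ribosomal RNAs of the mitochondrion. The mitochondrial transfer RNA genes were not analysed here, because 0 of the 15 rows belonged to one. The tumors were Trp53 null mammary carcinomas of a single transplant line, family F, grown in the mammary fat pad of BALB/cJ females aged 8 to 10 weeks, so every group shares the Trp53 loss and the host strain, and all tumors descend from 1 family. Treatment began at a volume of 65 to 100 mm3 and all tumors were collected at day 7. The 5 groups held 3 tumors each. Sham was given control IgG. In TGFbi the control treatment was joined by IPW-5371, which blocks TGF beta signaling, at a daily dose of 20 mg/kg. RT was a single focal dose of 10 Gy, and TGFbi+RT combined both. TGFbi+RT+anti-PD-L1, called the triple group, was additionally treated weekly with 10 mg/kg of an antibody against PD-L1, a ligand that restrains T cells. The labels do not state that each tumor came from its own mouse, so p-values measure the spread between these tumors.

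Mitochondria keep a small circular genome, whose proteins are all membrane subunits of complexes I, III, IV and V of oxidative phosphorylation. Complex II and the remaining subunits, the ribosomal proteins and the transcription machinery of the organelle come from nuclear genes. Transcription runs around the circle from both strands as long precursors, which are cut at the transfer RNAs that punctuate them into mRNAs and rRNAs, so neighboring mRNAs start from shared precursors and mature separately. The heavy-strand promoter region gives nearly all mRNAs, and mt-Nd6, a membrane subunit of complex I, is the single mRNA made from the opposite strand.

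The genome is packed so tightly that some reading frames share bases, and those stretches are shown because reads from them fall within both genes of a pair. The sequences are from GENCODE M21 transcripts on build GRCm38, each printed on its own strand, with the shared bases in capitals. Of the 204 bases of mt-Atp8 (chrM:7766-7969, plus strand), 43 are also the start of mt-Atp6 (chrM:7927-8607, plus strand), which is 21.1% of mt-Atp8 and 6.3% of mt-Atp6. The last 7 bases of mt-Nd4l (chrM:9877-10173) are the first 7 of mt-Nd4 (chrM:10167-11544), both on the plus strand. The ends of mt-Nd5 (chrM:11742-13565, plus strand) and mt-Nd6 (chrM:13552-14070, minus strand) run into each other over 14 bases.
mt-Atp8: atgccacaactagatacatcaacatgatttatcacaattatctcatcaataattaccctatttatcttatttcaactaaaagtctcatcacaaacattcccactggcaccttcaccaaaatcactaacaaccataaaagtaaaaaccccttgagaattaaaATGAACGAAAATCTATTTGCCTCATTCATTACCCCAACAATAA
mt-Atp6, first 90 bases: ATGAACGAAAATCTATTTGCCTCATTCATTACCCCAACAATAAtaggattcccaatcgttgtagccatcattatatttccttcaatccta
mt-Nd4l, last 60 bases: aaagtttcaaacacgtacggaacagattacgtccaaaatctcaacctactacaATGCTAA
mt-Nd4, first 60 bases: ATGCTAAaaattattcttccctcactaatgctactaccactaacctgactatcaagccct
mt-Nd5, last 60 bases: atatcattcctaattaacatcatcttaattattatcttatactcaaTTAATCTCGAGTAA
mt-Nd6, last 60 bases: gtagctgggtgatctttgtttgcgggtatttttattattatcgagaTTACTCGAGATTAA
The strand also shows in base composition. G makes up 28.1% and C 6.0% of mt-Nd6, while in the other 12 mRNAs, all read from the plus strand, G makes up 5.9% (mt-Atp8) to 16.1% (mt-Co1). How the authors' counting treated strand, overlapping genes and reads that also match nuclear copies of mitochondrial DNA is not given in the sources used here, so sense and antisense reads cannot be told apart for mt-Nd6.

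The libraries held 11002869 to 17184023 counts and were assigned 2 library codes. All Sham, TGFbi and TGFbi+RT libraries and triple replicate 1 were assigned A2301, and all RT libraries and triple replicates 2 and 3 A2304. TGFbi replicate 3 and TGFbi+RT replicate 3 are labelled as resubmitted, and their column names show no code, unlike those of the other tumors. The A2301 of these 2 libraries can thus not be checked against a code in the column names. By its number, the column of TGFbi replicate 3 falls between columns that show A2304. That of TGFbi+RT replicate 3 falls between columns that show A2301. All fits with library code took both libraries as A2301, which may be wrong for TGFbi replicate 3. All 8 epithelial markers had counts in all 15 tumors, led by the basal keratin Krt5 at 346 to 1116 CPM. Krt19 and Krt8 were as low as 0.164 and 0.327 CPM in a tumor. The listed macrophage, endothelial and fibroblast markers had counts in all tumors too, so presence alone does not set the tissue apart. Macrophage markers were highest in TGFbi+RT replicate 3 and triple replicate 2, with sums of 2052 and 2598 CPM (counts scaled to a common library size by the TMM factors of edgeR) against 149 to 1202 CPM elsewhere. Median fold changes of comparisons that include these tumors are also given without both. In bulk tumor RNA, more mitochondrial RNA per cell and more cells rich in mitochondria cannot be told apart.

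The 13 mitochondrial mRNAs together took 2.57%, 2.59% and 2.24% of all counts in Sham replicates 1 to 3. They took 3.03%, 3.70% and 6.45% in TGFbi, and 2.89%, 5.27% and 4.62% in TGFbi+RT. All 6 tumors of these inhibitor groups lay above every Sham tumor, but 1 tumor of each, TGFbi replicate 1 and TGFbi+RT replicate 1, were the nearest to Sham, at 3.03% and 2.89%. The share was 3.05%, 2.48% and 2.59% in RT and 2.97%, 2.57% and 2.77% in the triple group, where some tumors lay within the Sham range. Group means were 2.47% ± 0.197 in Sham, 4.40% ± 1.81 in TGFbi, 2.71% ± 0.301 in RT, 4.26% ± 1.23 in TGFbi+RT and 2.77% ± 0.204 in the triple group (SD, n = 3). The 2 high groups were thus also the most spread. Counting error is small at this depth: the 95% Wilson interval was 2.23% to 2.25% for the lowest tumor, Sham replicate 3, and 6.44% to 6.47% for the highest, TGFbi replicate 3. In every library its bounds lay within 0.013 percentage points of the share.

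**Figure D1:**
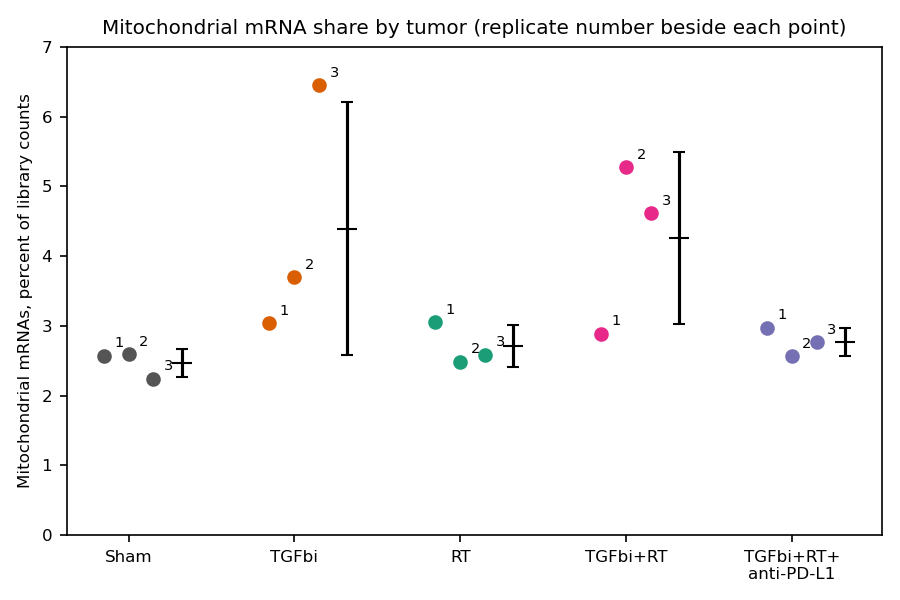
Share of library counts on the 13 mitochondrial mRNAs (vertical axis, percent) for each of the 15 tumors by group (horizontal axis), with replicate numbers beside the points and black bars for the mean ± SD of 3 tumors. TGFbi replicate 3 (6.45%) and TGFbi+RT replicates 2 and 3 (5.27% and 4.62%) lie highest, and the Sham tumors lie at 2.24% to 2.59%.

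Library composition differed in TGFbi replicate 3 beyond the mitochondrial genes. Rn7sk, a nuclear noncoding RNA, took 6.30% of its counts against 1.53% to 2.39% in the other 14 tumors. The most counted nuclear gene, an Entrez entry without a symbol in the reference tables, took 7.23% there and 7.06% in TGFbi+RT replicate 2, at the low end of its range of 7.06% to 13.0%. Set against nuclear counts without these 2 genes, the mitochondrial mRNAs measured 2.90% ± 0.247 in Sham, 5.39% ± 2.36 in TGFbi and 5.08% ± 1.39 in TGFbi+RT (SD, n = 3). The order of the groups was the same on both scales.

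Among themselves the mRNAs kept a steep order. Levels of different genes are compared as CPM per kb of gene. mt-Co1, the catalytic core of cytochrome c oxidase, was highest of the 13 in all 15 tumors, at a mean of 8173 CPM per kb ± 2892 (SD over 15 tumors). mt-Nd1 followed at 3907 ± 2086, then mt-Co2 at 3378 ± 1350, mt-Cytb, the single complex III subunit of this genome, at 2985 ± 1053, mt-Atp6, a proton channel subunit of the ATP synthase, at 2533 ± 836 and mt-Co3 at 2512 ± 668. The remaining complex I mRNAs came below these, from mt-Nd2 at 1628 ± 741 to mt-Nd3 at 502 ± 233. mt-Atp8, a small accessory subunit of the ATP synthase, was lowest of the 13 in every tumor, at 253 ± 56.6.

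The order was kept between some neighbors and not between others. mt-Co1 exceeded mt-Nd1, mt-Co3 exceeded mt-Nd2, mt-Nd4 exceeded mt-Nd4l, mt-Nd6 exceeded mt-Nd3 and mt-Nd3 exceeded mt-Atp8 in 15 of 15 tumors. mt-Atp6 was above mt-Co3 in 5 of 15, and mt-Nd5 above mt-Nd4 and mt-Nd4l above mt-Nd6 in 10 of 15 each, so these neighbors did not separate. mt-Nd4l, of 297 bases, had 13.1% to 16.9% of the counts of mt-Nd4, of 1378 bases, which it overlaps at its end. Per kb their means were 981 and 1479 CPM. mt-Nd6, of 519 bases, had 0.151 to 0.194 counts per count of mt-Nd5, its neighbor of 1824 bases on the opposite strand. Per kb their means were 908 and 1524 CPM. The count ratios are not scaled for length.

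**Figure D2:**
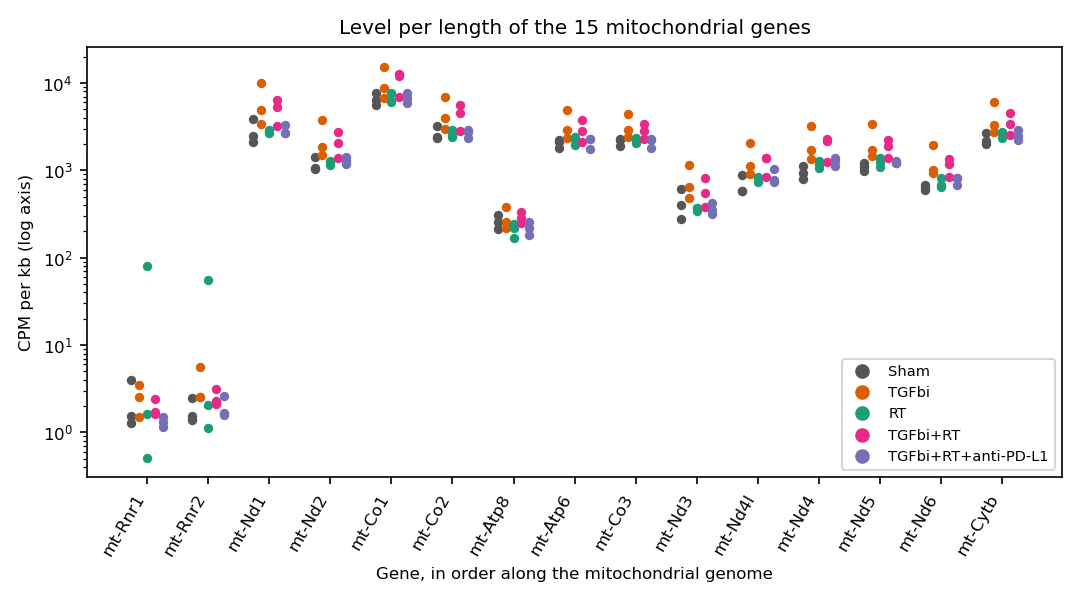
Level of the 15 mitochondrial genes (vertical axis, CPM per kb, log axis) in their order along the genome (horizontal axis), 1 point per tumor, colored by group. mt-Co1 is highest and mt-Atp8 lowest of the mRNAs, and both rRNAs lie far below them except in 1 RT tumor.

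TGFbi against Sham asked what inhibition of TGF beta signaling did alone. All 13 mRNAs were above Sham. Their median log2 fold change was 0.81 against -0.01 over the 16017 genes tested. The 7 complex I mRNAs had a median of 1.02, the 3 of complex IV 0.66 and the 2 of complex V 0.44, and mt-Cytb of complex III had 0.81. By edgeR's quasi-likelihood test 0 of the 15 genes passed an adjusted p of 0.05, where 0.00624% of all genes did. At an unadjusted p under 0.05 there were 11 of the 13 mRNAs, all higher, where 3.5% of all genes were higher at that level. DESeq2 called 2 mRNAs and 0.727% of the genes it tested, and limma-voom called 0 members. DESeq2 gave no p for either rRNA in any comparison, so its counts here cover the 13 mRNAs.

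mt-Nd6 had the smallest p in this comparison. It measured 349, 332 and 307 CPM in Sham and 481, 523 and 1018 CPM in TGFbi, so the groups did not overlap. Its log2 fold change was 1.03 ± 0.26 (SE, edgeR adjusted p of 0.298 and a DESeq2 adjusted p of 0.0324). mt-Nd4, a core membrane subunit of the proton-pumping arm of complex I, measured 1289, 1546 and 1108 CPM in Sham and 1859, 2384 and 4480 CPM in TGFbi, again without overlap. Its log2 fold change was 1.15 ± 0.30 (edgeR adjusted p of 0.329 and a DESeq2 adjusted p of 0.0377). Without TGFbi replicate 3, the highest of the 15 tumors for all 13 mRNAs, the log2 fold change was 0.62 for mt-Nd6 and 0.71 for mt-Nd4, and the median of the 13 was 0.41. All 6 libraries were assigned A2301, but TGFbi replicate 3 is a resubmitted one whose column name shows no code. The number in that name falls among the A2304 columns, so a single code for this comparison is not certain.

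Of the 13 mRNAs 8 did not overlap between TGFbi and Sham, all higher, where 7.43% of all genes were higher without overlap. mt-Rnr2 also lay above Sham without overlap, but by a small margin and on 27 to 110 counts. The lowest TGFbi tumor had 3.98 CPM and the highest Sham tumor 3.95 CPM (edgeR adjusted p of 0.851). The 8 mRNAs were mt-Nd2, mt-Nd4l, mt-Nd4, mt-Nd5 and mt-Nd6 of complex I, mt-Cytb, mt-Co3 and mt-Atp6. mt-Co1 overlapped, at 11796, 9947 and 8653 CPM in Sham and 10425, 13701 and 23847 CPM in TGFbi, a log2 fold change of 0.66 ± 0.31 (edgeR adjusted p of 0.586). The smallest difference was that of mt-Atp8, at 43.8, 62.5 and 52.2 CPM in Sham and 52.9, 44.5 and 78.2 CPM in TGFbi. Its log2 fold change was 0.15 ± 0.23 (edgeR adjusted p of 0.901).

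**Figure D3:**
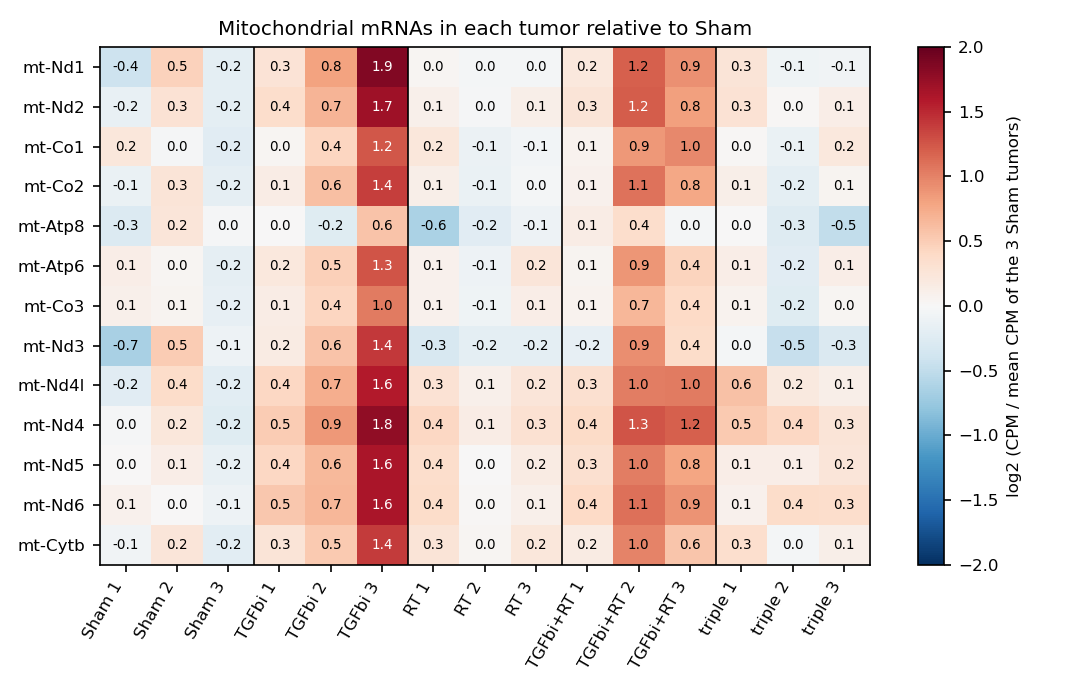
Log2 ratio of each mRNA's CPM (rows, in genome order) in each tumor (columns, with "triple" for TGFbi+RT+anti-PD-L1) to the mean of the 3 Sham tumors, red for higher and blue for lower. TGFbi replicate 3 and TGFbi+RT replicate 2 are above the Sham range for all 13 mRNAs, with the smallest ratio for mt-Atp8, and TGFbi+RT replicate 3 is above it for 11.

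TGFbi+RT against Sham compared the pair of treatments with neither. Again all 13 mRNAs lay above Sham, and their median log2 fold change was 0.71 against -0.01 over all genes tested. By edgeR 0 of 15 genes passed, where 0% of all genes did. 8 mRNAs had an unadjusted p under 0.05, all higher, where 9.76% of all genes were higher at that level. DESeq2 called 1 mRNA, mt-Nd4, and 3.01% of the genes it tested, and limma-voom called 0. mt-Nd4 measured 1709, 3147 and 3001 CPM, above all Sham tumors, a log2 fold change of 0.99 ± 0.30 with an adjusted p of 0.209 by edgeR and 0.046 by DESeq2. mt-Nd6 measured 434, 704 and 614 CPM, also above all Sham tumors, a log2 fold change of 0.83 ± 0.26 (edgeR adjusted p of 0.211). These 2 and mt-Nd5 were the 3 mRNAs without overlap, where 10.7% of all genes were higher without overlap. mt-Co1, at 10691, 18439 and 19629 CPM, overlapped with Sham. mt-Atp8 measured 58.3, 67.8 and 51.3 CPM, a log2 fold change of 0.16 ± 0.23. Replicates 2 and 3 were high and replicate 1 was near Sham, with 3 of its 13 mRNAs above the Sham range. Without TGFbi+RT replicate 3 and triple replicate 2 the median was 0.66, and 4 mRNAs had an unadjusted p under 0.05.

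RT against Sham compared radiation alone with none. The mRNAs lay around Sham, 9 above and 4 below, with a median log2 fold change of 0.06 against 0.01 over all genes tested. edgeR passed 0 of 15 genes, where 0% of all genes did, and 0 mRNAs and both rRNAs had an unadjusted p under 0.05, where 4.2% of all genes did. DESeq2 called 0 mRNAs and 0.00627% of the genes it tested, and limma-voom called 0. 0 of the 13 mRNAs were without overlap, where 5.77% of all genes were higher and 6.28% lower without overlap. mt-Nd4 measured 1751, 1458 and 1628 CPM, mt-Nd6 423, 335 and 353 CPM and mt-Co1 11880, 9330 and 9710 CPM, so that mt-Nd4 and mt-Nd6 were above the Sham range in replicates 1 and 3 and within it in replicate 2. mt-Atp8 measured 34.0, 45.0 and 49.1 CPM, a log2 fold change of -0.31 ± 0.23 (edgeR adjusted p of 0.999). Radiation and library code cannot be told apart in these groups, since all RT libraries carry A2304 and all Sham libraries A2301. With TGFbi replicate 3 taken as A2301, a coefficient for library code was estimated from the triple group alone. Fitted with this coefficient, the median was 0.21. It was -0.04 without Sham replicate 3 and 0.17 without Sham replicate 2.

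The triple group against Sham asked what all 3 agents did. The mRNAs had a median log2 fold change of 0.04 against 0.00 over all genes tested, with 10 above and 3 below. By edgeR 0 of 15 genes passed, where 0% of all genes did, and 0 members had an unadjusted p under 0.05, where 14.9% of all genes did. DESeq2 called 0 mRNAs and 3.88% of the genes it tested, and limma-voom called 0. mt-Nd4 had the smallest p, at 1894, 1758 and 1564 CPM, a log2 fold change of 0.40 ± 0.30 (edgeR adjusted p of 0.542). mt-Nd4l, a small membrane subunit of complex I, measured 306, 233 and 220 CPM against 173, 261 and 174 CPM in Sham, a log2 fold change of 0.32 ± 0.29 (edgeR adjusted p of 0.614). mt-Nd4, and mt-Nd6 at 351, 427 and 419 CPM, were the 2 mRNAs that did not overlap with Sham, both higher, where 9.41% of all genes were higher without overlap. The margin was small, with 351 CPM in the lowest triple tumor and 349 CPM in the highest Sham tumor for mt-Nd6. mt-Co1 measured 10352, 9216 and 11787 CPM and mt-Atp8 53.0, 44.3 and 37.4 CPM, both overlapping with Sham. The median was -0.07 without Sham replicate 3, 0.24 without Sham replicate 2, and 0.12 without TGFbi+RT replicate 3 and triple replicate 2.

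The triple group against TGFbi+RT asked what the checkpoint antibody added to the pair. All 13 mRNAs were below TGFbi+RT, with a median log2 fold change of -0.57 against 0.03 over all genes tested. edgeR passed 0 of 15 genes, where 0% of all genes did. 1 mRNA, mt-Co2, had an unadjusted p under 0.05, where 1.3% of all genes were lower at that level, and DESeq2 called 0 mRNAs and 0.00627% of the genes it tested, and limma-voom 0. mt-Co2, the subunit of cytochrome c oxidase that takes electrons from cytochrome c, measured 1920, 3856 and 3109 CPM in TGFbi+RT and 1969, 1594 and 1886 CPM in the triple group. Its log2 fold change was -0.71 ± 0.30 (edgeR adjusted p of 1.00). mt-Nd1, a complex I subunit next to the quinone site, measured 3095, 6140 and 5032 CPM in TGFbi+RT and 3189, 2530 and 2543 CPM in the triple group, a log2 fold change of -0.79 ± 0.37. Both genes overlapped, since TGFbi+RT replicate 1 lay among the triple tumors. 2 mRNAs, mt-Nd5 and mt-Nd6, did not overlap, both lower, where 2.88% of all genes were lower without overlap. For mt-Nd6 the margin was small, with 427 CPM in the highest triple tumor and 434 CPM in the lowest TGFbi+RT tumor. The triple group shares the TGFbi+RT treatment with the group it is set against, and 2 of its 3 libraries carry the other library code. With the code fitted too, the median was -0.49, and without TGFbi+RT replicate 3 and triple replicate 2 it was -0.50.

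Pooled as means of groups, the 9 tumors given the inhibitor were set against the 6 without it. Anti-PD-L1 was given on the inhibitor side only and radiation was not balanced between the sides, so the pooled values do not isolate the inhibitor. All 13 mRNAs were higher, with a median log2 fold change of 0.51 against -0.01 over all genes tested. By edgeR 0 of 15 genes passed, where 0% of all genes did, and 9 mRNAs had an unadjusted p under 0.05, all higher, where 9.69% of all genes were higher at that level. DESeq2 called 4 mRNAs, mt-Nd2, mt-Nd4l, mt-Nd4 and mt-Nd6, and 4.71% of the genes it tested. All 4 encode complex I subunits. mt-Rnr1 was lower, at -2.09 ± 0.78 on the log2 scale (edgeR adjusted p of 0.214). The level without the inhibitor rested on RT replicate 1, which held 1222 counts. By edgeR mt-Nd6 had a log2 fold change of 0.63 ± 0.17 and mt-Nd4 of 0.70 ± 0.20, both with an adjusted p of 0.149. 0 mRNAs were without overlap, where 0.112% of all genes were higher without overlap. limma-voom called 0 members. The median of the 13 was 0.46 with library code also fitted and 0.53 without TGFbi+RT replicate 3 and triple replicate 2.

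The 9 irradiated tumors had mRNAs below the 6 without radiation, with 13 of 13 lower and a median log2 fold change of -0.15 against 0.01 over all genes tested. Anti-PD-L1 was given on the irradiated side only and the inhibitor was not balanced between the sides, so the pooled values do not isolate radiation. edgeR passed 0 of 15 genes, where 0% of all genes did, 0 had an unadjusted p under 0.05, where 12.4% of all genes did, and DESeq2 called 0 mRNAs and 2.14% of the genes it tested, and limma-voom 0. mt-Nd3, a short complex I subunit, had the smallest p, with a log2 fold change of -0.42 ± 0.22 and an edgeR adjusted p of 0.446. It measured 95.8, 215 and 140 CPM in Sham, 168, 222 and 402 in TGFbi, 121, 131 and 131 in RT, 134, 288 and 193 in TGFbi+RT, and 146, 109 and 123 in the triple group. mt-Atp8 had -0.20 ± 0.15. Without TGFbi replicate 3 the median of the 13 was 0.06, on the other side of 0, and with library code also fitted it was -0.07. It was -0.14 without TGFbi+RT replicate 3 and triple replicate 2.

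A test for any difference among the 5 groups passed 0 of the 15 genes by edgeR, where 0% of all genes passed, and 9 mRNAs and both rRNAs had an unadjusted p under 0.05, where 10.8% of all genes did. The smallest adjusted p values were 0.306 for mt-Nd6, 0.313 for mt-Rnr1 and 0.328 for mt-Nd4. DESeq2 called 5 mRNAs, mt-Nd1, mt-Nd2, mt-Nd4, mt-Nd5 and mt-Nd6, and 4.11% of the genes it tested, and limma-voom called 0. Whether the inhibitor's effect differed with and without radiation was tested as an interaction. By edgeR 0 of the 15 genes passed, where 0% of all genes did, and the 13 mRNAs had differences of log2 fold changes of -0.45 (mt-Nd4) to 0.32 (mt-Atp8), all with an adjusted p of 1 and 0 with an unadjusted p under 0.05, where 3.8% of all genes had one. The 2 rRNAs had -3.98 (mt-Rnr1) and -3.93 (mt-Rnr2), with unadjusted p of 0.0416 and 0.0206. Without TGFbi+RT replicate 3 and triple replicate 2, 6 mRNAs had an unadjusted p under 0.05 in the test among the groups and 0 in the interaction. By edgeR 0 members passed either test then, and the interaction values of the mRNAs ran from -0.54 (mt-Nd4) to 0.42 (mt-Atp8).

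The makeup of the mRNA pool was steadier than its size. mt-Co1 took 38.2% ± 2.98 of mitochondrial mRNA counts over the 15 tumors (SD), from 34.7% in TGFbi replicate 3 to 44.8% in Sham replicate 1. Its level varied with a CV of 35.4% over the tumors and its share of the pool with a CV of 7.80%. For mt-Nd6 these values were 39.8% and 10.3%, and for mt-Nd1 53.4% and 15.1%. Complex I mRNAs together took 30.8% ± 3.98 of the pool in Sham and 36.1% ± 1.88 in TGFbi, and complex IV mRNAs 53.3% ± 4.39 and 48.4% ± 1.53 (SD, n = 3). Sham replicate 1 stood apart within its group: it had 5.91 counts of mt-Co1 per count of mt-Nd1, against 2.47 to 4.63 in the other 14 tumors. mt-Nd4 took 4.89%, 5.48% and 4.97% of the pool in the Sham tumors, the 3 lowest values of the 15, with 5.51% to 7.17% in the other 12.

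mt-Atp8 had a CV of 22.4% in its level and 24.8% in its share of the pool. It ranged 2.30-fold over the tumors, from 34.0 to 78.2 CPM, where mt-Nd1 ranged 4.84-fold. Its share of the pool was 0.166%, 0.222% and 0.235% in Sham. It was 0.118% and 0.114% in TGFbi replicates 2 and 3, and 0.134% and 0.112% in TGFbi+RT replicates 2 and 3, the 4 tumors with the largest mitochondrial share. Low values were not limited to these: RT replicate 1 had 0.115% at a mitochondrial share of 3.05%, and triple replicate 3 had 0.132% at 2.77%. Relative to mt-Atp6, with which it shares a bicistronic transcript, mt-Atp8 had 3.80% ± 0.824 of the counts in Sham, 2.62% ± 0.564 in TGFbi, 2.89% ± 0.580 in RT, 3.10% ± 0.788 in TGFbi+RT and 3.18% ± 0.663 in the triple group (SD, n = 3), with overlapping ranges. mt-Atp8 is the shortest of the 13 genes, at 204 bases, and 43 of them are shared. The part of length and overlap in its values was not tested.

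The 2 rRNAs, the structural RNAs of the small and large mitochondrial ribosomal subunit, were nearly absent from the libraries, which had been treated to deplete rRNA. mt-Rnr1 had 25, 15 and 58 counts in Sham, 28, 18 and 41 in TGFbi, 22, 29 and 18 in TGFbi+RT, and 19, 16 and 17 in the triple group. mt-Rnr2 had 41, 27 and 61 counts in Sham, 46, 50 and 110 in TGFbi, 49, 64 and 39 in TGFbi+RT, and 40, 37 and 49 in the triple group. RT held the exception. mt-Rnr1 had 1222, 23 and 7 counts there and mt-Rnr2 1416, 26 and 46, so that replicate 1 alone was high. There were 5.58 rRNA counts per 1000 mRNA counts in RT replicate 1 and 0.106 to 0.346 in the other 14 tumors. The 2 rRNAs made up 0.0170% of the library in RT replicate 1, with an exact 95% interval of 0.0164% to 0.0177%.

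In RT against Sham mt-Rnr1 had a log2 fold change of 3.58 ± 1.29 and mt-Rnr2 of 3.43 ± 1.10, with edgeR adjusted p values of 0.999 each. Without RT replicate 1 these were -1.07 and -0.21, so the direction rested on that library. In RT replicate 1 the most counted nuclear gene took 7.96%, toward the low end of its range, and Rn7sk 1.80%. These rRNA values measure what was left after depletion, and depletion and rRNA level cannot be told apart.

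**Figure D4:**
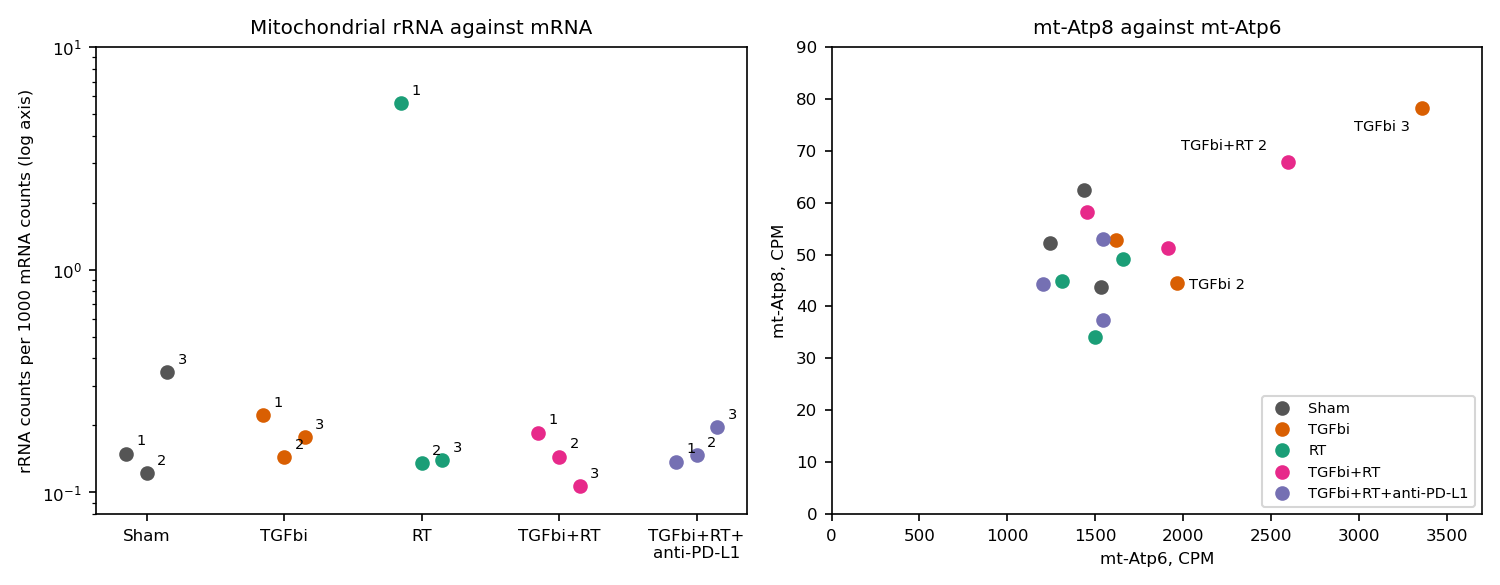
Left, mitochondrial rRNA counts per 1000 mitochondrial mRNA counts (vertical, log axis) for each tumor by group, with replicate numbers, where RT replicate 1 lies at 5.58 and the other 14 tumors at 0.106 to 0.346. Right, mt-Atp8 against mt-Atp6 in CPM, 1 point per tumor colored by group, where TGFbi replicate 2 lies high for mt-Atp6 (1963 CPM) but not for mt-Atp8 (44.5 CPM).

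Against Sham, the nuclear partners of these proteins had medians on the other side of 0 from the mitochondrial mRNAs. For pooled radiation both medians were below 0, at -0.124 for the nuclear subunits and -0.155 for the mitochondrial mRNAs. Of the 72 nuclear genes listed for subunits of complexes I, III, IV and V, 71 passed the filter on low counts. In TGFbi against Sham 58 of the 71 were lower, with a median log2 fold change of -0.16, beside 0.81 for the 13 mitochondrial mRNAs. In TGFbi+RT 65 of 71 were lower with a median of -0.26, beside 0.71, and in the triple group 64 of 71 with a median of -0.26, beside 0.04. In RT 50 of 71 were lower with a median of -0.14, beside 0.06. Of the 16017 genes tested, 8227 were lower in TGFbi, 8174 in TGFbi+RT, 8086 in the triple group and 7663 in RT. These comparisons share the Sham tumors, whose nuclear subunit sums were uneven, at 3867, 5458 and 4650 CPM in replicates 1 to 3. The TGFbi sums were 3911, 4290 and 4220 CPM, all above Sham replicate 1. By edgeR 0 of the 71 passed the test for any difference among the 5 groups and 7 had an unadjusted p under 0.05, beside the 10.8% of all genes given above. TGFbi+RT replicate 3 and triple replicate 2 had the lowest nuclear subunit sums, 3458 and 3231 CPM. Without both, the median was -0.23 in TGFbi+RT, with 64 of 71 lower, and -0.21 in the triple group, with 63 of 71 lower. Ndufb11, an accessory subunit of complex I, measured 53.2 ± 5.06 CPM in Sham, 48.1 ± 1.64 in TGFbi and 36.4 ± 6.31 in TGFbi+RT. In RT it measured 48.5 ± 1.69 and in the triple group 36.7 ± 6.8. Ndufb5, of the same complex, measured 49.0 ± 2.61 in Sham, 37.1 ± 5.44 in TGFbi and 35.4 ± 1.27 in TGFbi+RT. In RT it measured 45.85 ± 4.74 and in the triple group 37.6 ± 4.5 (SD, n = 3). Their edgeR adjusted p values for any difference among the 5 groups were 0.332 and 0.353. The 4 subunits of complex II, which has no mitochondrially encoded part, had a median of -0.48 in TGFbi against Sham, with 4 of 4 lower and 0 called. Among them Sdhc, a membrane anchor, measured 132 ± 12.1 CPM in Sham and 92.3 ± 6.62 in TGFbi.

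Set as a ratio of summed CPM, the 13 mitochondrial mRNAs were 6.81, 5.17 and 4.79 times the nuclear subunits of the same complexes in Sham. The ratio was 7.50, 8.79 and 16.3 in TGFbi, 7.15, 12.9 and 13.2 in TGFbi+RT, 7.69, 5.23 and 6.14 in RT, and 6.66, 7.59 and 7.51 in the triple group. All TGFbi and TGFbi+RT tumors were above all Sham tumors, while the triple group overlapped with Sham. By complex, the triple group lay above Sham without overlap for complex I, at 7.25 to 8.86 against 4.85 to 5.78, and for complex III, at 5.59 to 5.69 against 3.60 to 4.99. It overlapped with Sham for complex IV, at 23.4 to 29.1 against 17.6 to 25.6, and for complex V, at 0.889 to 1.01 against 0.647 to 1.01. TGFbi and TGFbi+RT also overlapped with Sham for complex V. Replicate 1 of each, at 0.976 and 0.881, lay below Sham replicate 1, at 1.01. For complexes I, III and IV both groups lay above Sham without overlap.

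**Figure D5:**
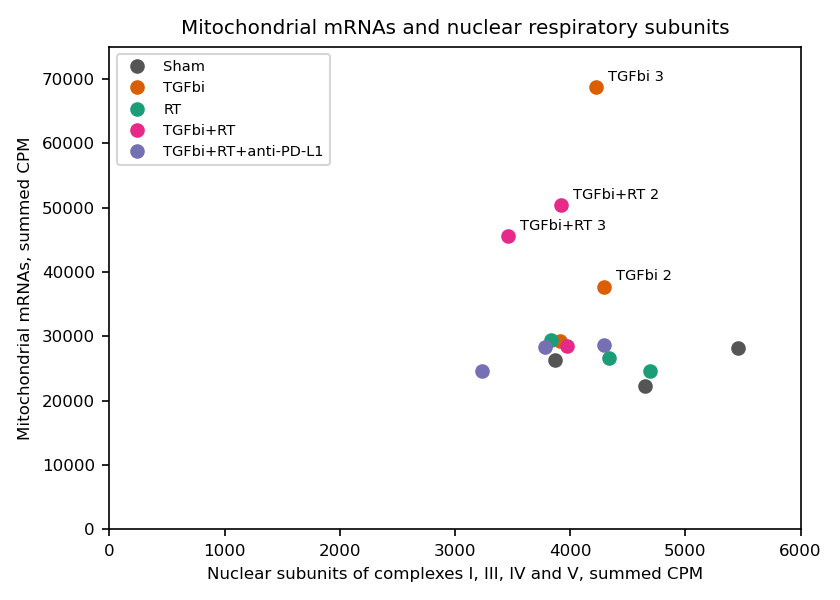
Summed CPM of the 13 mitochondrial mRNAs (vertical) against summed CPM of the nuclear subunits of complexes I, III, IV and V (horizontal), 1 point per tumor colored by group. TGFbi replicate 3 has the highest mitochondrial sum at a middling nuclear sum of 4220 CPM, and Sham replicate 2 has the highest nuclear sum, 5458 CPM.

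Genes that make, process and translate mitochondrial RNA were read from lists. The 21 genes of mitochondrial DNA replication and transcription had a median log2 fold change of -0.04 in TGFbi against Sham, with 7 higher and 14 lower, and 0.005 in TGFbi+RT, with 12 higher and 9 lower. Ssbp1, the single-strand DNA binding protein of the organelle, measured 8.42 ± 0.848 CPM in Sham, 12.7 ± 2.75 in TGFbi and 10.3 ± 2.01 in TGFbi+RT (SD, n = 3; edgeR adjusted p of 0.489 for any difference among the 5 groups). The 30 genes of mitochondrial RNA processing and stability had medians of -0.03 in TGFbi and -0.12 in TGFbi+RT. Grsf1, an RNA-binding protein of mitochondrial RNA granules, measured 162 ± 15.1 CPM in Sham, 143 ± 4.96 in TGFbi and 125 ± 6.14 in TGFbi+RT. Hsd17b10, a subunit of mitochondrial ribonuclease P, measured 69.3 ± 8.52, 47.5 ± 7.30 and 41.1 ± 13.8 in these groups. Their edgeR adjusted p values for any difference among the 5 groups were 0.472 and 0.465. The mitochondrial ribosome, 76 tested genes, had medians of -0.05 in TGFbi, with 48 lower, and -0.27 in TGFbi+RT, with 65 lower. Mitochondrial biogenesis regulators, 11 genes, had medians of 0.01 and 0.07, and the 17 tested genes of the mitochondrial stress response -0.11 and -0.31. Without TGFbi+RT replicate 3 and triple replicate 2, the TGFbi+RT medians were 0.05 for replication and transcription, -0.01 for RNA processing, -0.17 for the ribosome, 0.03 for biogenesis and -0.20 for the stress response. In all of these lists edgeR called 0 genes in any comparison of 2 sides.

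Markers of other cells were read beside the mitochondrial mRNAs. The 12 adipocyte markers summed to 12.0 to 79.6 CPM in Sham, 34.3 to 397 in TGFbi, 12.1 to 117 in RT, 46.6 to 382 in TGFbi+RT and 99.7 to 237 in the triple group. Within TGFbi the order was the reverse of the mitochondrial one: replicate 3, with the largest mitochondrial share, had the lowest adipocyte sum, 34.3 CPM, and replicate 1 the highest, 397 CPM. This order did not hold in TGFbi+RT, where replicate 3 had the highest adipocyte sum, 382 CPM, at a mitochondrial share of 4.62%, replicate 1 had 77.5 CPM at 2.89% and replicate 2 had 46.6 CPM at 5.27%. The part of adipocytes in the mitochondrial values was not tested. Adipoq was at 0 in 6 of the 15 tumors and the brown fat gene Ucp1 in 12. The 15 skeletal muscle markers summed to 5.06 to 16.6 CPM over the tumors, with Mb at most 13.3 CPM, and the fast myosins Myh1 and Myh4 were at 0 in 13 of 15 tumors each. The 6 erythrocyte markers summed to 302 to 637 CPM in Sham, 624 to 1289 in TGFbi, 118 to 960 in RT, 524 to 658 in TGFbi+RT and 169 to 695 in the triple group, and their part in the mitochondrial values was not tested. Summed macrophage markers were high in TGFbi+RT replicate 3 and in triple replicate 2, whose mitochondrial mRNA shares were 4.62% and 2.57%, and their part in the shares was not tested. The 8 fibroblast markers summed to 7863, 523 and 616 CPM in Sham replicates 1 to 3, and the 6 endothelial markers to 619, 103 and 143. Fibroblast sums were 1824 to 3448 CPM in TGFbi, 754 to 7813 in RT, 1470 to 3949 in TGFbi+RT and 1451 to 7954 in the triple group. RT replicate 1 held the highest RT sum. Their part in the mitochondrial values was not tested.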

How the data were processed

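RNA from 15 tumors and 1 reference library was measured by rRNA-depleted RNA-seq, and the reference library entered no comparison. The authors deposited whole-number counts of read fragments per gene, not normalized, on build GRCm38, per the labels and file headers. Column names mention Subread, and the settings for strand, overlaps and multiple matches are not given in the sources used here. The members and gene lists were chosen with earlier results of these data known.

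Total counts were 11002869 to 17184023 per tumor. All genes were filtered by expression (filterByExpr), which left 16017 with all 15 members, scaled by TMM and fitted by edgeR 4.0.16 quasi-likelihood models in R 4.3.3, with 1 mean per group over all 15 tumors (10 residual degrees of freedom) and Benjamini-Hochberg adjustment over all genes at 0.05. The 7 comparisons, an F test among the 5 groups and the interaction were tested, and sums over members were not. DESeq2 1.42.0 and limma-voom (limma 3.58.1), other scalings, no filter, omitted libraries, library code and replicate block were alternatives. Leaving out TGFbi+RT replicate 3 with triple replicate 2 was added after seeing the data. The fits were tested on simulated data with less spread than these tumors, whose common biological coefficient of variation was 0.364. That test does not show how many true changes would be found here. Shares have 95% binomial intervals, which cover counting error only, since the reads carry no molecular identifiers. Tumors of a group differed beyond counting error, with a chi-square per gene of 14.0 to 129 within groups. Symbols came from RefSeq tables (25275 of 27179 matched), coordinates from the authors' annotation and sequences from GENCODE M21. Values in every tumor are given for both rRNAs, mt-Nd6, the mRNAs highest and lowest per kb, and the 2 genes with the smallest p of each comparison (3 for the F test). From each nuclear list, up to 2 genes with the smallest F test p were eligible. Genes named for their overlap or ratio were chosen after their values were seen.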

Additional observations from a re-analysis of the deposited data

Results flagged for a closer look

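mt-Rnr2 was picked out because its effect of the inhibitor pointed in opposite directions without and with radiation: all 3 TGFbi tumors were above the Sham mean, while all 3 TGFbi+RT tumors were below the RT mean. The difference of the log2 fold changes was -3.93 ± 1.49 (SE). It did not pass edgeR's interaction test, whose adjusted p was 1. The RT mean rests on RT replicate 1, which had 1416 counts of mt-Rnr2 against 26 and 46 in the other RT tumors.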

How the results depend on the processing

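By edgeR the count of members past the threshold was 0 in all comparisons under every alternative run, including each library left out. limma-voom called 0, and DESeq2, which gave no p for the rRNAs, called 2 in TGFbi vs Sham, 1 in TGFbi+RT vs Sham, 4 for inhibitor against none and 5 among the 5 groups. The median over the 13 mRNAs in TGFbi vs Sham was 0.39 without the resubmitted libraries, and 0.41 to 1.05 with each library left out in turn. With each left out, the medians were -0.04 to 0.17 in RT vs Sham, 0.56 to 0.91 in TGFbi+RT vs Sham, -0.07 to 0.24 in the triple group vs Sham, -0.74 to -0.40 in the triple group vs TGFbi+RT, 0.38 to 0.59 for the inhibitor and -0.25 to 0.06 for radiation, which was also 0.07 without the resubmitted libraries. mt-Rnr1 in RT vs Sham ran from -1.07 to 4.21 and mt-Rnr2 from -0.21 to 3.99, the lowest without RT replicate 1. mt-Atp8 for radiation turned from -0.20 to 0.00 (0.004) with the library code as a term. The cause of these changes was not tested, except that omission leaves fewer tumors.

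The labels tie replicate numbers to no shared source. Same-numbered tumors of different groups had correlations of deviations of -0.58 to 0.67 (median -0.05). With the replicate block 0 members were called in any comparison, and the medians were 0.82 in TGFbi vs Sham, 0.07 in RT, 0.68 in TGFbi+RT and 0.10 in the triple group. Scaling by RLE, by the total or without the most abundant RNAs gave 0.82 to 0.83 in TGFbi vs Sham. With 3 tumors a group, the spread between tumors limits these tests, while for the rRNAs a depth of 7 to 110 counts outside RT replicate 1 limits them too.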
